A study of Homo sapiens with 12 samples.

Results

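The genes described here are 9 inflammatory targets of the transcription factor NF-kB: the chemokine genes CXCL8, CXCL1, CXCL2 and CCL2, the cytokine genes IL6 and LIF, the feedback inhibitors NFKBIA and TNFAIP3, and the adhesion receptor gene ICAM1. They were chosen by name, and every H3K27ac peak within 5 kb of their hg19 start sites was collected, with flanks of 50 kb on either side for enhancers. Of 659281 peaks in 9 libraries, 97 lay within 5 kb of a start site and 466 within 50 kb. Merged over libraries, they formed 11 and 74 regions, of 120387 regions in all. The start sites were given to the nearest kb, so distances below carry an error of that size. Positions are given along rising genome coordinates, and CXCL2, NFKBIA and LIF are read in the opposite direction, so positive distances lie upstream of those 3 genes.

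H3K27ac, the acetylation of lysine 27 of histone H3, marks active promoters and enhancers, and was mapped by ChIP-seq on native (unfixed) chromatin of MDA-MB231, a human breast cancer cell line. All cells had been infected with lentivirus: Control cells received a virus labelled EV-control (control shRNA in the design text), CDK19KD cells an shRNA against CDK19 and CDK8KD cells an shRNA against CDK8, and all grew for 96 h before ChIP from 250000 to 500000 cells. Each group had 3 libraries of this single cell line, with 1 list of broad peaks per library, to compare acetylation after loss of either kinase with Control and between the knockdowns. The number of shRNA sequences used per kinase is not given in the sources used here, and the knockdowns were not checked here.

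NF-kB dimers wait in the cytoplasm bound to inhibitor proteins such as IkB-alpha, the product of NFKBIA. Inflammatory signals trigger destruction of the inhibitor, and the freed dimers enter the nucleus, bind kappaB sites in promoters and enhancers, and switch on chemokines, cytokines and adhesion molecules together with the genes of their own inhibitors, which ends the response. MDA-MB231 cells are known for active NF-kB without added stimulus and for secretion of IL-8 and IL-6. CDK8 and CDK19 are closely related kinases of the Mediator complex, which links transcription factors to RNA polymerase II, and CDK8 is known as a co-regulator of NF-kB target genes.

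Letters like those of a kappaB site were looked for in the proximal promoters. RefSeq promoter sequences (build GRCh38.p14) were found for 7 of the 9 genes, CCL2 and LIF being the others. The last 150 bases before the start are printed 5′ to 3′ for 6 genes to show where kappaB-like letters sit, with matches to GGNNNTTCC on either strand in capitals.
CXCL8 (chr4:73740419-73740568, plus strand): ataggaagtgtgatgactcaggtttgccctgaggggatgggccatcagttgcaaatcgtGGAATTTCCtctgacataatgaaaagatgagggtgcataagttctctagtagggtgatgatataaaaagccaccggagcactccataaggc
CXCL1 (chr4:73869243-73869392, plus strand): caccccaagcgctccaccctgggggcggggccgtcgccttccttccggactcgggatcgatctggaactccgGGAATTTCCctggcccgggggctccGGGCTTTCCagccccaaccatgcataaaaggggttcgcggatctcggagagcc
CXCL2 (chr4:74099196-74099345, minus strand): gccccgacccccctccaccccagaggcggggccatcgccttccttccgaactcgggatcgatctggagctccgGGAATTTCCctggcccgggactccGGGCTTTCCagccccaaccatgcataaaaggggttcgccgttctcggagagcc
IL6 (chr7:22727050-22727199, plus strand): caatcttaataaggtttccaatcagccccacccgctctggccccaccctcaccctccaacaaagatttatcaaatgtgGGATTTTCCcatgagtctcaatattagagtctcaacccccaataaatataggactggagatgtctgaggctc
NFKBIA (chr14:35404750-35404899, minus strand): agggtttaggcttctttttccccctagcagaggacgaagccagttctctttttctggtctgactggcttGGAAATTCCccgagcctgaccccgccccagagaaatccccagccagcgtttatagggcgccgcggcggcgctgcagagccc
TNFAIP3 (chr6:137867109-137867258, plus strand): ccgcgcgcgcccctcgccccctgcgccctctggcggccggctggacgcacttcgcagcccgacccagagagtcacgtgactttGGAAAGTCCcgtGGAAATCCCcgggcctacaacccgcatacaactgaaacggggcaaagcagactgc
CXCL8 had GGAATTTCC from 91 to 83 bases before its start. CXCL1 and CXCL2 are paralogs, and both held GGAATTTCC followed by GGGCTTTCC from 53 to 45 bases before the start. IL6 held GGATTTTCC from 72 to 64 bases before its start. NFKBIA held GGAAATTCC from 81 to 73 bases before its start and a further GGACTTTCC from 242 to 234, outside the printed stretch. TNFAIP3 carried 2 reverse-strand matches 3 bases apart. ICAM1 had GGAAATTCC from 186 to 178 bases before its start. In the 250 bases before the start, all 7 genes matched GGNNNTTCC, as did 17.1% of the 35116 promoters in the table. This motif was spelled out after these sequences had been read, so the count over the 7 genes is a description of letters already seen. A looser kappaB-like pattern, GGG and CC spaced by 5 bases of any kind, can overlap it and was in all 7 and in 54.4% of all promoters. TGANTCA, the letters of an AP-1 site, was in CXCL8 alone among the 7 and in 6.57% of all promoters. On either strand, TATAAA was in CXCL8, NFKBIA and ICAM1 and in 10.7% of all promoters, and the NFKBIA match was on the reverse strand. The peaks below are in hg19, and no coordinate was converted between the builds.

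The 9 lists held 62669 to 87530 peaks each on chromosomes 1 to 22 and X and covered 261.7 to 318.3 Mb. Read depth is unknown, so the counting error of a value could not be estimated, and the tests rest on the spread between libraries. The share of peaks with a deposited −log10 q of at least 5 ranged from 17.1% to 43.9% between lists, so lists differ in the strength at which they stop. For each gene, the percent of the 10 kb around the start site and of the 100 kb around it that was covered by peaks was computed in every library. Both were tested with limma beside all 10 kb or 100 kb tiles of the genome, with Benjamini-Hochberg adjustment over all of them.

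The genes differed widely among themselves in every group. Over the 9 libraries, mean cover of the start-site window was 98.9% for IL6, 91.2% for CXCL2, 87.6% for LIF, 85.0% for NFKBIA, 66.3% for CXCL8, 60.7% for ICAM1, 57.9% for TNFAIP3, 39.0% for CXCL1 and 0% for CCL2, against a median of 29.4% over the tested tiles. The tiles, here and for 100 kb, lie on a fixed grid and are not centred on start sites, so unlike windows are set side by side. Genes next to each other in the order of cover had overlapping ranges over the libraries, except CXCL1 and CCL2. In the 100 kb window the order was LIF at 67.6%, NFKBIA at 51.6%, CXCL2 at 37.1%, CXCL8 at 32.8%, ICAM1 at 28.7%, IL6 at 28.3%, TNFAIP3 at 28.2%, CXCL1 at 16.4% and CCL2 at 0.134%, against a tile median of 12.1%. There, NFKBIA stood clear of CXCL2 and CXCL1 of CCL2, while the other neighbours in the order overlapped. Stretches of at least 200 bp that were covered in all 9 libraries added up to 46.2 kb of the 100 kb around LIF, 36.6 kb around NFKBIA, 28.6 kb around CXCL2, 20.7 kb around IL6, 19.0 kb around CXCL8, 13.6 kb around TNFAIP3, 9.7 kb around ICAM1 and 5.77 kb around CXCL1. CCL2 had none. Of the 74 regions near the genes, 30 (40.5%) were held by all 9 libraries, against 28.3% of all regions.

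**Figure D1:**
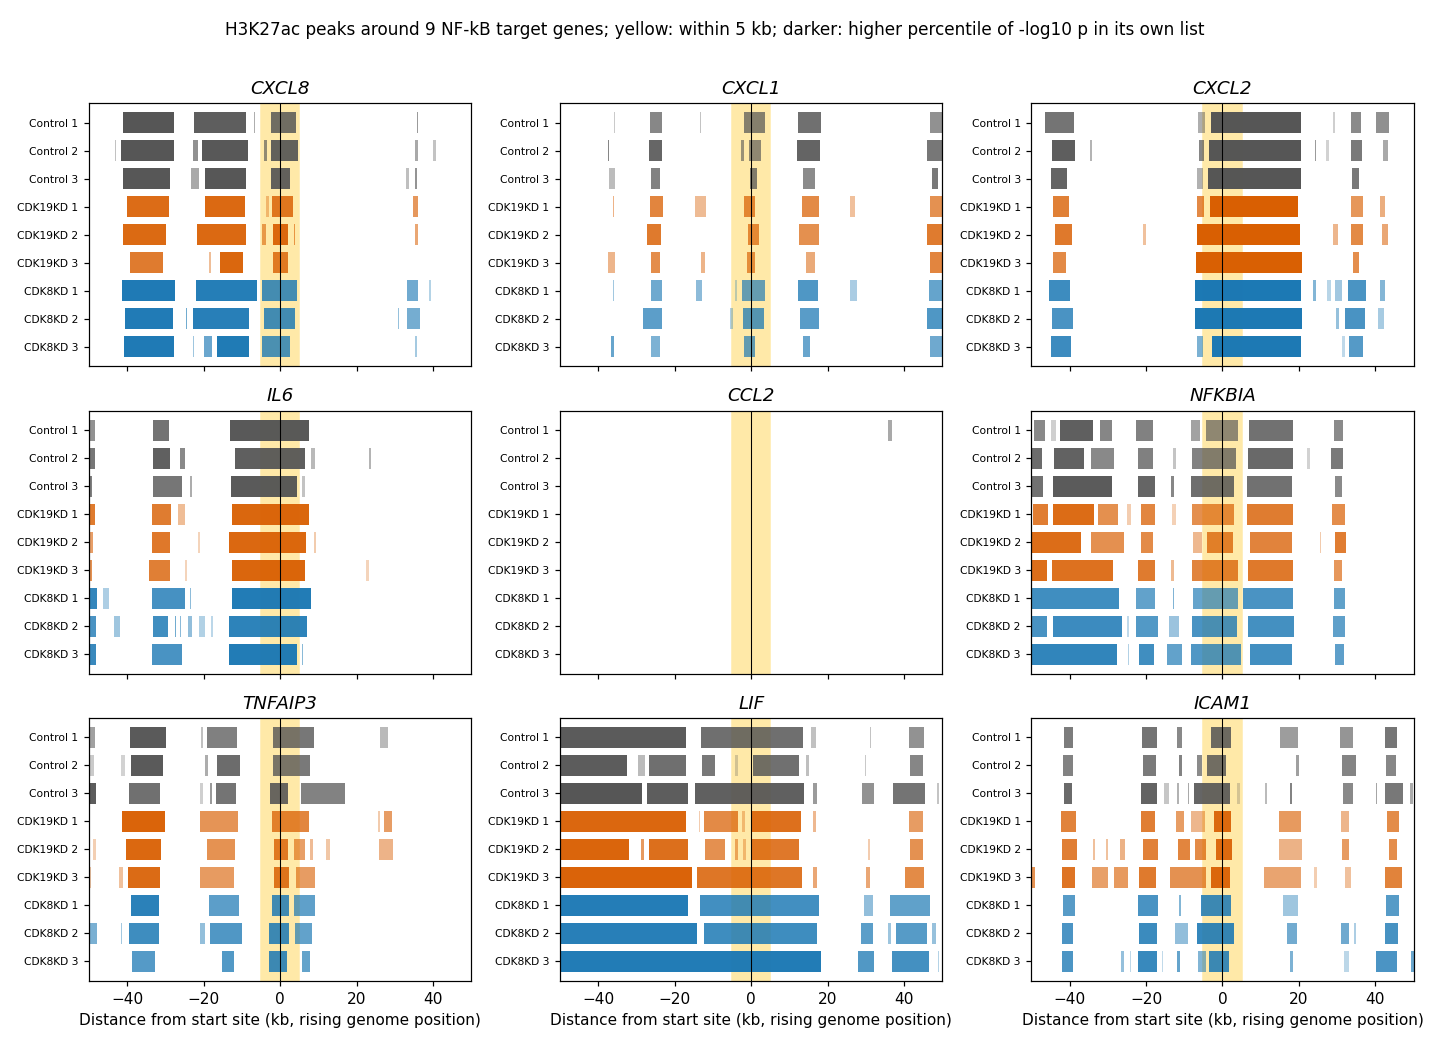
H3K27ac peaks of the 9 libraries (rows, Control grey, CDK19KD orange, CDK8KD blue) around the 9 genes, by distance from the start site in kb along rising genome coordinates. Darker bars have a higher percentile of the deposited −log10 p in their own list, and the yellow band marks 5 kb on either side of the start; CXCL2, IL6 and LIF have wide domains, while the single bar near CCL2 is in Control replicate 1.

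The shape of the acetylated stretch at the start also set the genes apart. CXCL2, a neutrophil-attracting chemokine, lay in a peak of 23.2 to 28.1 kb in every library that lay mostly on the upstream side of the start, and the part common to all 9 libraries ran from −2.8 to 19.8 kb. By deposited −log10 p this peak was at the 99.1st to 99.9th percentile of its own list, and its fold enrichment from the authors' peak caller was 6.23 to 9.98. IL6, the cytokine that signals through gp130 to STAT3, lay in a peak of 17.3 to 20.7 kb at the 89.5th to 96.9th percentile, with a common part from −11.7 to 4.49 kb. The strongest start-site peak of CXCL1 was at the 54.3rd to 66.0th percentile only, with a −log10 q of at least 5 in 2 of 9 libraries. The corresponding percentiles were 71.7 to 90.9 for CXCL8, 54.6 to 80.3 for NFKBIA, 67.4 to 85.2 for TNFAIP3, 77.2 to 96.6 for LIF and 78 to 92.7 for ICAM1. At CXCL8 the flank was stronger than the start site: its strongest peak within 50 kb was at the 91.4th to 99.1st percentile and lay below −8 kb in all 9 libraries. This was not particular to CXCL8. At NFKBIA the strongest peak within 50 kb also lay in the flank in every library, at the 78.6th to 95.2nd percentile. At CXCL1, TNFAIP3 and LIF it lay away from the start-site peak in most libraries. At CXCL2 and IL6 the start-site peak was the strongest in every library, and at ICAM1 in most.

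Of the 9 genes, 8 were testable, and 0 of 8 were called by limma at an adjusted p under 0.05 in either window without the replicate block. With the replicate number as a block, LIF was called in the 100 kb window for CDK19KD against CDK8KD (adjusted p = 0.0429). The block gave CXCL8 in the same comparison a limma adjusted p of 0.0504 in the 100 kb window and 0.0712 in the start-site window. For CDK8KD against Control in the 100 kb window it gave LIF 0.057 and NFKBIA 0.0851. None of these passed. CCL2 had too little cover to be tested. Among all start-site windows and 10 kb tiles the called share was 0.0781% for CDK19KD against Control, 0.716% for CDK8KD against Control and 1.01% for CDK19KD against CDK8KD, and among 100 kb windows it was 0%, 0.543% and 0.335%, so a count of 0 in 8 is near these backgrounds. At an unadjusted limma p under 0.05, the start-site windows gave 0, 0 and 2 genes in these 3 comparisons (9.92%, 14.7% and 14.6% of all windows) and the 100 kb windows 0, 2 and 2 (10.7%, 17.4% and 14.4% of all 100 kb windows). With the block these counts were 1, 1 and 3 for the start-site windows and 2, 2 and 2 for the 100 kb windows. Without the block, the lowest adjusted p was 0.631, 0.439 and 0.169 for the start-site windows and 0.469, 0.205 and 0.218 for the 100 kb windows. In the start-site windows the median difference between CDK19KD and Control was −6.69 percentage points over the 8 genes, with 2 higher and 6 lower, against −2.26 over all tiles tested. It was 8.79 points between CDK8KD and Control, with 6 higher and 2 lower, against 0.88 over all tiles, and −15.41 points between CDK19KD and CDK8KD, with 3 higher and 5 lower, against −3.22 over all tiles. In the 100 kb windows the median difference was −0.28 points for CDK19KD against Control (4 genes higher, 4 lower; all tiles −0.84), 3.24 points for CDK8KD against Control (7 higher, 1 lower; all tiles 0.10) and −3.99 points for CDK19KD against CDK8KD (2 higher, 6 lower; all tiles −1.02).

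Scaling cover by the total length of each list moved these summaries. In the 100 kb windows CDK19KD against Control then gave a median of 2.60 points with 7 genes higher and 1 lower (all tiles 0.14), CDK8KD against Control 2.39 points with 7 higher and 1 lower (all tiles −0.07), and CDK19KD against CDK8KD −0.06 points with 3 higher and 5 lower (all tiles 0.19). In the start-site windows the scaled medians were −0.49, 7.17 and −6.78 points in the same order of comparisons. With the 20000 strongest peaks, CDK19KD against Control gave 1 gene higher and 7 lower in the 100 kb windows, so its direction over the genes depended on the setting. In the start-site windows, groups that did not overlap were found for 0 of 8 genes between CDK19KD and Control (6.52% of all windows higher and 7.24% lower), for 1 gene higher and 0 lower between CDK8KD and Control (12.8% and 4.50%), and for 0 higher and 2 lower between CDK19KD and CDK8KD (5.38% and 15.4%). In the 100 kb windows the counts were 0 higher and 1 lower (6.19% and 8.69%), 3 higher and 0 lower (13.9% and 5.26%), and 0 higher and 3 lower (5.40% and 18.5%). The 3 comparisons share libraries, so they are not independent of each other.

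**Figure D2:**
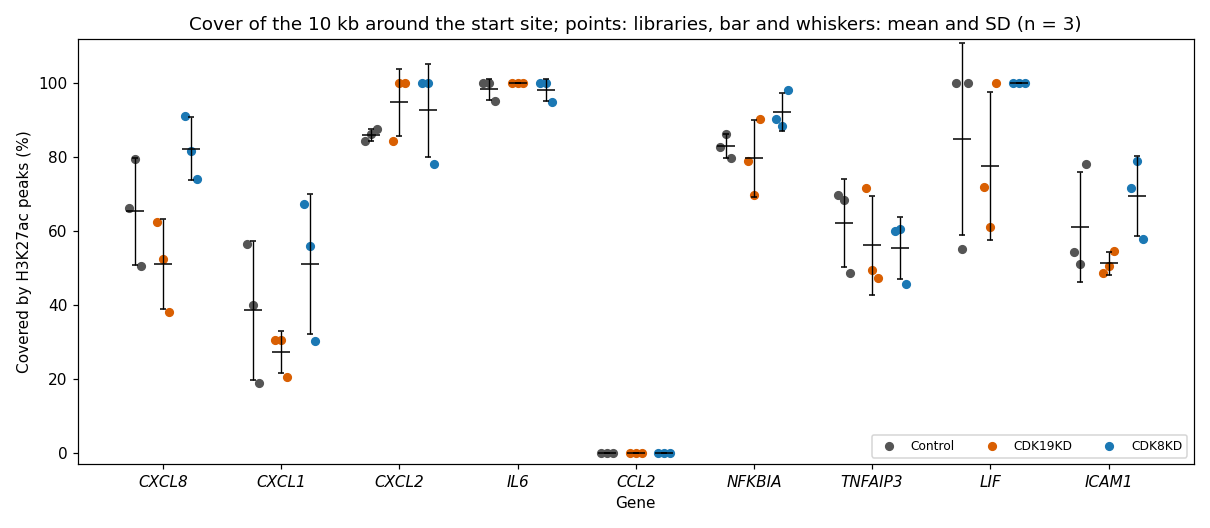
Percent of the 10 kb around each start site covered by H3K27ac peaks (vertical axis) for the 9 genes; each point is a library, and the bar and whiskers are the mean and SD of the 3 libraries of a group (an SD can reach past 100%). CXCL8 runs from 38.2% to 62.5% in CDK19KD and from 74.2% to 91.1% in CDK8KD, and CCL2 is at 0% in all libraries.

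CXCL8 encodes interleukin-8, the neutrophil chemoattractant. Its start-site window was covered to 66.1%, 79.5% and 50.6% in Control replicates 1, 2 and 3, to 62.5%, 52.5% and 38.2% in CDK19KD and to 91.1%, 81.6% and 74.2% in CDK8KD. The CDK19KD and CDK8KD libraries did not overlap, while both overlapped Control. Windows in which CDK19KD lay below CDK8KD without overlap made up 15.4% of all windows tested, and CXCL8 and ICAM1 were the 2 of 8 genes of this kind. CDK19KD was below CDK8KD by 31.2 percentage points (difference −31.22, SE 9.16, 95% confidence interval −52.48 to −9.95, limma adjusted p = 0.169; 3 of 3 same-numbered pairs lower). The difference between CDK8KD and Control was 16.9 points (SE 9.16, limma adjusted p = 0.439), or 9.47 without Control replicate 3. With each list reduced to its 20000 strongest peaks, these differences were −13.42 and −5.12 points. That cut kept the start-site peak in 8 of 9 libraries. It dropped the peak of CDK8KD replicate 3, at the 71.7th percentile of its list, so both values include a CDK8KD library without cover there.

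The flank of CXCL8 on the side of INKILN and UMLILO, its neighbours at lower coordinates in RefSeq's gene order, held 2 wide regions present in all 9 libraries. The farther of them (chr4:74564328-74578618 in hg19) spanned −41.7 to −27.4 kb. It was covered over 13.5, 14.0 and 12.3 kb in Control, 10.9, 11.4 and 8.86 kb in CDK19KD and 13.9, 12.7 and 13.03 kb in CDK8KD. All 3 CDK19KD libraries lay below all 6 others. The nearer region, from −23.3 to −5.94 kb, was covered over 9.91 ± 3.34 kb in CDK19KD, 13.4 ± 0.620 kb in Control and 13.8 ± 2.66 kb in CDK8KD (mean ± SD, n = 3 each), with overlapping groups. A 10 kb tile inside the farther region, from −36 to −26 kb, had an adjusted p of 0.289 for CDK19KD against Control and 0.094 against CDK8KD (limma). Over the whole 100 kb the cover was 34.4%, 37.2% and 31.7% in Control, 29.0%, 30.4% and 19.1% in CDK19KD and 42.5%, 39.5% and 31.8% in CDK8KD. CDK19KD lay below both other groups without overlap. That holds for 8.69% of all 100 kb windows tested against Control, where CXCL8 was the 1 gene of 8, and for 18.5% against CDK8KD, where CXCL8, NFKBIA and LIF were the 3 of 8. The differences were −8.27 points against Control (SE 4.20, limma adjusted p = 0.496) and −11.74 against CDK8KD (SE 4.20, 95% confidence interval −21.19 to −2.30, limma adjusted p = 0.237). The first was −4.72 without CDK19KD replicate 3 and −5.39 with cover scaled by the total length of each list, and the second −7.40 with the 20000 strongest peaks.

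CXCL1 and CXCL2 encode chemokines that act on the same receptor, CXCR2. The start-site window of CXCL1 was covered to 56.6%, 40.1% and 19.0% in Control, 30.6%, 30.6% and 20.6% in CDK19KD and 67.3%, 56.0% and 30.3% in CDK8KD. In each group the third replicate was the lowest, and the groups overlapped. CDK19KD minus CDK8KD was −23.90 points (SE 11.94, 95% confidence interval −51.64 to 3.84, limma adjusted p = 0.420), and 10.21 with a −log10 q of at least 5. That setting left a start-site peak only in Control replicate 1 and CDK19KD replicate 1. The value of 10.21 thus rests on 1 CDK19KD library against no cover in CDK8KD, and does not show a reversed difference. In 100 kb the group means of CXCL1 were 15.5%, 15.9% and 17.9% for Control, CDK19KD and CDK8KD, within 1 SD of each other.

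CXCL2 had its start-site window covered to 84.2%, 86.3% and 87.5% in Control, 84.4%, 100% and 100% in CDK19KD and 100%, 100% and 78.2% in CDK8KD. With groups that overlap and differences of 8.75 and 6.69 points from Control (limma adjusted p = 0.671 and 0.680), no difference was detectable there. The wide domain itself covered 25.6 ± 0.249 kb in Control, 26.5 ± 1.43 kb in CDK19KD and 26.9 ± 1.67 kb in CDK8KD (mean ± SD, n = 3 each). On the side of MTHFD2L, a region from 32.2 to 37.6 kb (chr4:74997159-75002607) was covered over 2.51, 3.001 and 1.95 kb in Control, 3.17, 3.14 and 1.78 kb in CDK19KD and 4.73, 5.06 and 3.47 kb in CDK8KD. All CDK8KD libraries lay above the 6 others there.

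CCL2, the monocyte-attracting chemokine, had no peak within 5 kb of its start in any library. Within 50 kb, where CCL7, CCL11 and CCL8 follow at higher coordinates in RefSeq's gene order, the sole peak was in Control replicate 1, 1.21 kb long from 35.7 to 36.9 kb, with a fold enrichment of 2.5 from the authors' peak caller. Absence from these lists says only that nothing passed the caller's threshold at the depth of these libraries.

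IL6 was covered throughout its start-site window in 7 of 9 libraries, the others being Control replicate 3 at 95.1% and CDK8KD replicate 3 at 94.9%. A window that is full cannot show a gain, so the 100 kb window carries the comparison. There, the cover was 26.5%, 27.1% and 27.1% in Control, 28.6%, 26.9% and 26.4% in CDK19KD and 33.0%, 31.6% and 27.7% in CDK8KD. CDK8KD lay above Control without overlap, by 3.89 points (SE 2.61, 95% confidence interval −1.99 to 9.76, limma adjusted p = 0.478). The interval for CDK19KD minus Control ran from −5.48 to 6.27 points. A wide region at the edge of the window and mostly outside it, from −83.5 to −47.9 kb (chr7:22683528-22719112), was covered over 27.1 ± 1.65 kb in Control, 27.4 ± 2.67 kb in CDK19KD and 31.7 ± 3.41 kb in CDK8KD (mean ± SD, n = 3 each). All CDK8KD libraries lay above the other 6, but narrowly: CDK8KD replicates 2 and 3 had 29.85 and 29.52 kb, and CDK19KD replicate 1 had 29.46 kb. CDK8KD replicate 1 had 35.59 kb.

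LIF, a cytokine of the IL6 family, had the widest acetylated stretch of the 9 genes. Peaks over its start merged into a region of 84.6 kb (chr22:30576598-30661163) that ran from −66.4 to 18.2 kb, across the side on which LIF-AS1 and HORMAD2 lie in RefSeq's gene order. Its covered length was 76.8, 61.0 and 73.2 kb in Control, 70.2, 59.7 and 77.8 kb in CDK19KD and 79.7, 81.6 and 82.1 kb in CDK8KD. In CDK8KD replicate 3 it was 1 unbroken peak, while the other 8 libraries had gaps. The start-site window was covered to 100%, 55.0% and 100% in Control, 71.9%, 61.0% and 100% in CDK19KD and 100% in each CDK8KD library, so the groups touched or overlapped.

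Upstream of the start, on the side of LIF-AS2 and OSM, lay the tile with the lowest limma adjusted p between the knockdowns among the 68 tested near the genes. This 10 kb tile from 7 to 17 kb (chr22:30650001-30660000) was covered to 79.7%, 61.1% and 75.3% in Control, 64.5%, 54.0% and 73.5% in CDK19KD and 100% in all CDK8KD libraries. It was the only 1 of 68 testable tiles near the 9 genes that passed the test, for CDK19KD against CDK8KD, where 1.01% of all tiles did (difference −36.01 points, SE 6.02, limma adjusted p = 0.0457). A count of 1 in 68 is near that share. For CDK8KD minus Control, where 0 of the 68 tiles passed, the difference in it was 27.99 points (limma adjusted p = 0.0944). The tile was full in CDK8KD, so a larger cover there could not be seen, and the equal CDK8KD values add no spread to the SE. The call did not hold when any single CDK19KD or CDK8KD library, or Control replicate 1 or 3, was left out (adjusted p 0.0588 to 0.151), nor with cover scaled by the total length of each list (−26.67 points, adjusted p 0.227). Near the genes, 7, 9 and 12 of the 68 tiles had an unadjusted limma p under 0.05 for CDK19KD against Control, CDK8KD against Control and CDK19KD against CDK8KD (10.3%, 13.2% and 17.6%, against 9.92%, 14.7% and 14.6% of all tiles), and 0 passed the adjusted threshold for CDK19KD against Control.

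Farther out, the region from 35.8 to 46.9 kb from the start of LIF was covered over 3.87, 3.50 and 8.40 kb in Control, 3.67, 3.35 and 4.84 kb in CDK19KD and 10.7, 9.18 and 9.62 kb in CDK8KD. Control replicate 3 was near the CDK8KD libraries, and the other 5 libraries were far below them. Over 100 kb, LIF was covered to 65.4%, 49.8% and 74.2% in Control, 59.8%, 51.6% and 69.4% in CDK19KD and 77.5%, 78.6% and 82.3% in CDK8KD. All CDK8KD libraries lay above all others. Against Control alone, CDK8KD lay above without overlap in 13.9% of all windows and at IL6, NFKBIA and LIF (3 of 8 genes). Against CDK19KD alone it did so in 18.5% of all windows and at CXCL8, NFKBIA and LIF (3 of 8 genes). The share of windows that meet both was not computed. CDK8KD minus Control was 16.37 points (SE 6.54, 95% confidence interval 1.64 to 31.10, limma adjusted p = 0.244), and 9.72 without Control replicate 2. CDK19KD minus CDK8KD was −19.21 points (SE 6.54, 95% confidence interval −33.94 to −4.48, limma adjusted p = 0.218), and with the replicate number as a block this difference passed (adjusted p = 0.0429). It was −10.95 points with cover scaled by the total length of each list (adjusted p = 0.626).

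**Figure D3:**
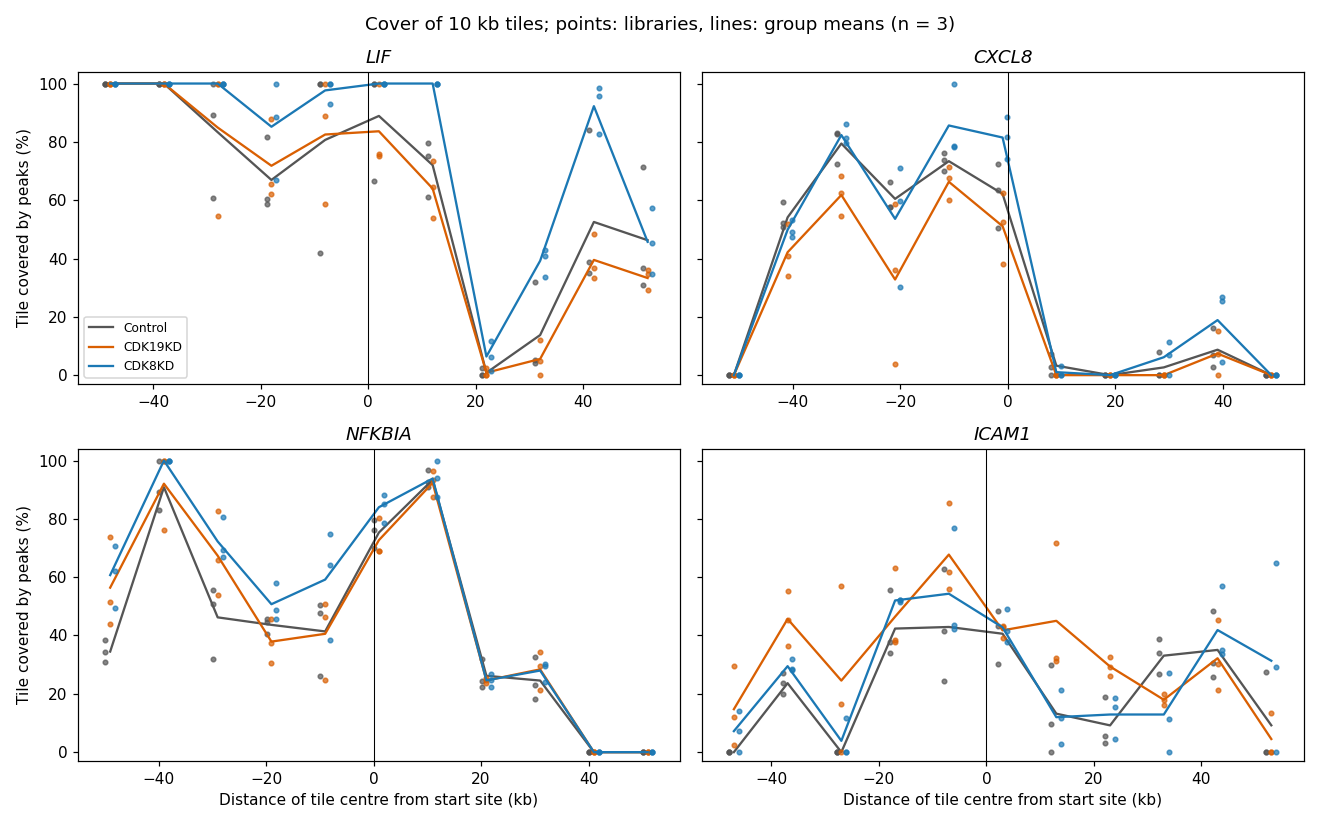
Percent of 10 kb tiles covered by peaks (vertical axis) against the distance of the tile centre from the start site in kb, for LIF, CXCL8, NFKBIA and ICAM1; points are libraries and lines the means of the 3 libraries of each group. At LIF the CDK8KD line stays at 100% in the tile from 7 to 17 kb while Control libraries lie between 61.1% and 79.7%; at CXCL8 the CDK19KD line lies below the others from −36 to −26 kb.

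NFKBIA and TNFAIP3 are the brakes of the pathway: IkB-alpha holds NF-kB in the cytoplasm, and A20, the product of TNFAIP3, is a ubiquitin-editing enzyme that stops signalling upstream of it. The start-site window of NFKBIA was covered to 82.9%, 86.3% and 79.9% in Control, 78.9%, 69.7% and 90.3% in CDK19KD and 90.3%, 88.5% and 98.2% in CDK8KD. CDK8KD lay above Control without overlap, as did 12.8% of all windows, and NFKBIA was the 1 gene of 8 of this kind (difference 9.31 points, SE 5.16, limma adjusted p = 0.447, or 2.87 points with the 20000 strongest peaks). Among the 20000 strongest, the start-site peak remained in 2 of 9 libraries, Control replicate 3 and CDK8KD replicate 2. The value of 2.87 thus rests on 1 library of each group. In 100 kb the cover was 44.9%, 49.0% and 48.5% in Control, 52.2%, 48.5% and 51.2% in CDK19KD and 55.6%, 57.7% and 56.9% in CDK8KD. CDK8KD lay above both other groups, and exceeded Control by 9.27 points (SE 3.34, 95% confidence interval 1.75 to 16.79, limma adjusted p = 0.205). CDK19KD minus CDK8KD was −6.11 points (limma adjusted p = 0.469), and 0.39 with cover scaled by the total length of each list. Groups were most clearly apart downstream of the gene, in a region from −51.1 to −25.7 kb (chr14:35822870-35848258) that was covered over 16.0, 17.3 and 18.2 kb in Control, 19.97, 23 and 20.5 kb in CDK19KD and 24.0, 22.6 and 22.5 kb in CDK8KD. There, both knockdown groups lay above Control.

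Mean cover around TNFAIP3 was lower in CDK8KD than in Control, without passing the test. Its start-site window was covered to 69.6%, 68.3% and 48.5% in Control, 71.5%, 49.6% and 47.4% in CDK19KD and 60.0%, 60.5% and 45.8% in CDK8KD, with groups that overlap. In 100 kb the cover was 32.6%, 27.2% and 32.6% in Control, 33.2%, 28.7% and 27.7% in CDK19KD and 25.6%, 29.4% and 16.5% in CDK8KD. CDK8KD minus Control was −6.97 points (SE 3.80, 95% confidence interval −15.52 to 1.58, limma adjusted p = 0.377), and −3.29 without CDK8KD replicate 3. On the side of WAKMAR2, a region at the edge of the window and mostly outside it, from −62.4 to −48.0 kb (chr6:138125571-138140015), was covered over 12.8, 12 and 14.02 kb in Control, 9.25, 10.8 and 10.99 kb in CDK19KD and 10.8, 11.7 and 10.8 kb in CDK8KD. Both knockdown groups lay below Control there. The next region toward the gene, from −42.2 to −29.9 kb, was covered over 8.98 ± 0.725 kb in Control, 10.0 ± 1.14 kb in CDK19KD and 7.25 ± 1.11 kb in CDK8KD (mean ± SD, n = 3 each).

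ICAM1 encodes a cell surface receptor that leukocyte integrins bind. Its start-site window was covered to 54.2%, 51.1% and 78.3% in Control, 48.7%, 50.6% and 54.7% in CDK19KD and 71.6%, 79.0% and 57.8% in CDK8KD. CDK19KD lay below CDK8KD without overlap (difference −18.15 points, SE 8.51, 95% confidence interval −37.92 to 1.61, limma adjusted p = 0.387). The difference was −11.32 points with cover scaled by the total length of each list. The 100 kb window was covered to 24.3%, 20.3% and 28.3% in Control, 28.2%, 30.6% and 47.5% in CDK19KD and 24.1%, 29.7% and 25.7% in CDK8KD. CDK19KD replicate 3 stood above all other libraries. CDK19KD minus Control was 11.15 points (SE 5, 95% confidence interval −0.10 to 22.41, limma adjusted p = 0.469), 5.11 without CDK19KD replicate 3, and −0.05 with the 20000 strongest peaks of each list. CDK19KD minus CDK8KD was 8.96 points with overlapping groups (limma adjusted p = 0.481), 2.91 without CDK19KD replicate 3, −3.11 with a −log10 q of at least 5 and −2.70 with the 20000 strongest peaks.

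The regions around ICAM1 did not all have the same order of groups. The region over the start, from −13.7 to 2.9 kb, was covered over 8.10 ± 1.96 kb in Control, 11.6 ± 2.28 kb in CDK19KD and 9.87 ± 2.75 kb in CDK8KD (mean ± SD, n = 3 each), with overlapping groups. The region from 30.8 to 35.1 kb was covered over 3.39, 3.87 and 2.67 kb in Control, 2.003, 1.78 and 1.61 kb in CDK19KD and 0, 2.73 and 1.15 kb in CDK8KD, so that CDK19KD lay below Control. The region from 10.8 to 20.9 kb, on the side of ICAM4 and ICAM5, was covered over 4.90, 0.548 and 1.26 kb in Control, 5.73, 6.15 and 9.63 kb in CDK19KD and 4.02, 2.73 and 0.720 kb in CDK8KD, so that CDK19KD lay above the other 6 libraries. The region from −42.1 to −38.0 kb (chr19:10339875-10344018), on the side of S1PR2 and MRPL4, was covered over 2.38, 2.72 and 1.99 kb in Control, 3.77, 4.03 and 3.36 kb in CDK19KD and 3.18, 2.90 and 2.81 kb in CDK8KD, with no overlap between any of the 3 groups. A region at the edge of the window and mostly outside it, from −53.6 to −49.0 kb (chr19:10328417-10332961), was held by all CDK19KD libraries over 1.01, 1.19 and 4.55 kb, by no Control library, and by CDK8KD replicates 2 and 3 over 1.51 and 2.54 kb. It was the 1 group-exclusive region (held by all 3 libraries of a group and none of the other) among the 62 near the genes that CDK19KD or Control libraries held. Genome-wide, 0.669% of the 107806 regions held by either group were held by CDK19KD but not by Control in this way. No region near the genes was exclusive to Control in that comparison (0.469% of those regions). Over the regions held by either group compared, none of 70 near the genes met the rule between CDK8KD and Control (0.650% and 0.419% genome-wide in the respective directions), and none of 67 did between CDK19KD and CDK8KD (1.11% and 1.04%).

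**Figure D4:**
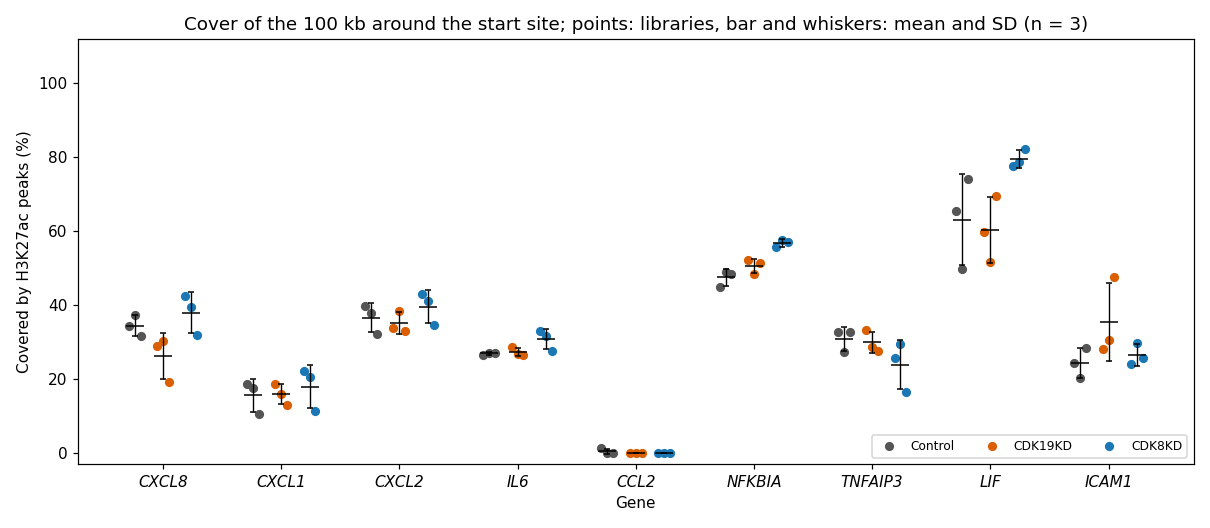
Percent of the 100 kb around each start site covered by H3K27ac peaks (vertical axis) for the 9 genes; each point is a library, and the bar and whiskers are the mean and SD of the 3 libraries of a group. LIF lies between 77.5% and 82.3% in CDK8KD, above all 6 other libraries, and ICAM1 reaches 47.5% in CDK19KD replicate 3.

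Across the genes, the 30 regions held by all libraries give the covered length without the question of presence. For CDK8KD against Control, 7 of the 30 were longer in every CDK8KD library and 1 was shorter, against 15.8% and 4.34% of all such regions. These were the regions named above near CXCL2, IL6, NFKBIA and LIF (2 regions), with 2 near ICAM1, and the shorter was that of TNFAIP3. Those of IL6 and TNFAIP3 lie mostly outside the flanks of 50 kb. For CDK19KD against Control, 3 were longer and 3 shorter, against 6.90% and 8.44% of all. For CDK19KD against CDK8KD, 3 were longer and 8 shorter, against 4.52% and 19.7% of all. These counts describe regions and were not tested. By mean absolute difference of 100 kb cover over the 9 libraries, the members closest to each other were CXCL8 and CXCL2 (4.23 percentage points) and IL6 and TNFAIP3 (4.49 points), with ICAM1 closest to IL6 (5.37 points). CXCL1 was closest to TNFAIP3 (11.73 points), NFKBIA to CXCL2 (14.56 points), LIF to NFKBIA (16.01 points) and CCL2 to CXCL1 (16.3 points).

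**Figure D5:**
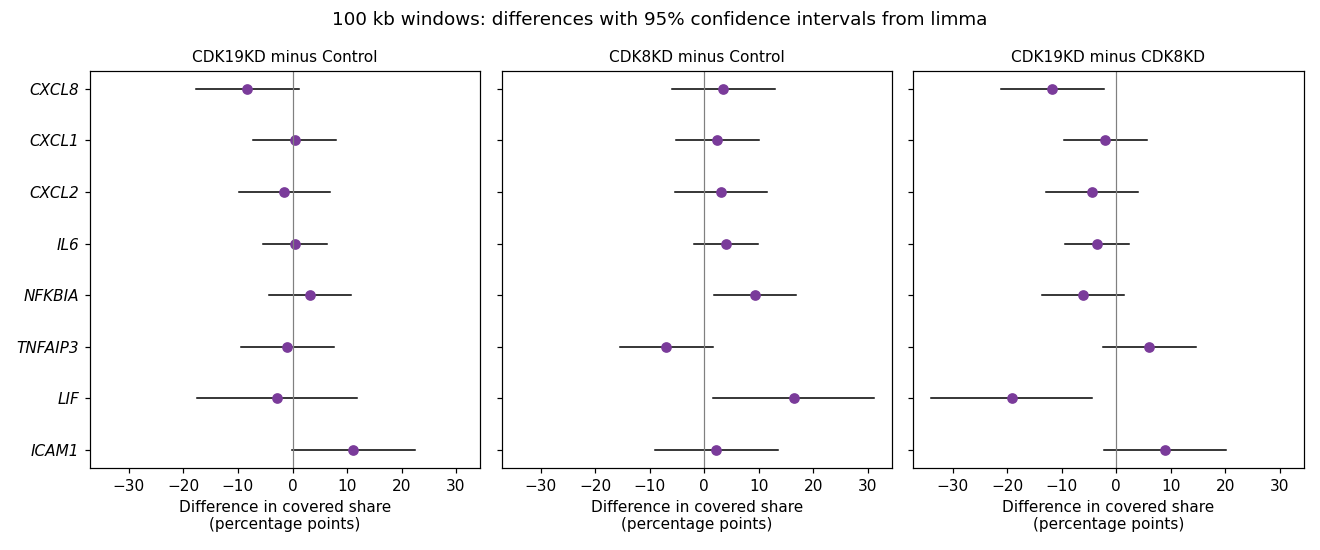
Differences in percent cover of the 100 kb windows (horizontal axis, percentage points) for the 8 tested genes in the 3 comparisons; points are the differences of group means and lines their 95% confidence intervals from limma. Intervals that leave out 0 are those of NFKBIA and LIF for CDK8KD minus Control and of CXCL8 and LIF for CDK19KD minus CDK8KD, none of which passed the adjusted threshold without the replicate block.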

How the data were processed

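H3K27ac ChIP-seq peak lists of 9 libraries (3 each of Control, CDK19KD and CDK8KD, grouped by sample titles) were used, and the 3 Input samples were not analysed here. The authors deposited 1 list of broad peaks per library, and the peak names carry the label MACS2. MACS2, deepTools and the build hg19 are named per the submitters' processing notes. The aligner, caller settings, versions and read depth are not given in the sources used here. Each peak carries a fold enrichment, a linear ratio as deposited, and the −log10 of a p-value and of a q-value as deposited. Such values ranked, filtered or described peaks inside a single list and were not themselves compared between lists. The setting with a −log10 q of at least 5 did use 1 cutoff for all lists. It kept 17.1% to 43.9% of their peaks, and the cover left was compared between groups.

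Peaks of chromosomes 1 to 22 and X were used. Percent cover of a window is the share of its bases under peaks of a library. The windows of the 9 genes were fitted together with all 10 kb tiles with a mean cover of at least 5%, or all 100 kb tiles with at least 1%, in limma 3.58.1 (R 4.3.3), using lmFit and trended eBayes over the 9 libraries in 1 fit, with Benjamini-Hochberg adjustment over all windows and a threshold of 0.05. Peaks that overlap by at least 1 bp were merged into regions with Python 3.11.15. The fit was checked on simulated data with independent noise in each library, so that check does not cover links between same-numbered libraries. The replicate numbers in the titles recur in each group. Same-numbered libraries correlated at 0.138 to 0.611 after group means were removed, in 9 of 9 pairs above 0.1, so the numbers were treated as pairing the samples and used as a block in an alternative fit. Values of SE, interval and p are from the fit without this block unless stated. The labels do not say whether replicates were separate cultures, so p-values measure the spread between these samples, which may be technical.

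The members and lists were chosen with earlier results of these data known. Named items are the 9 genes, group-exclusive regions and called tiles near them, and the most similar member of each gene. Regions described beyond this rule, other than those over the start sites, were chosen after their values were seen, as was the motif GGNNNTTCC. An hg19 annotation was not used here, so other NF-kB genes and cell type markers were not analysed here. Other settings tried were peaks joined within 1000 bp, lists limited to a −log10 q of 5 or more or to 20000 peaks by strength, scaling by covered length, other window sizes and grids, no minimum, other rules for holding a region, omission of every library in turn, and the replicate block.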

Additional observations from a re-analysis of the deposited data

Results flagged for a closer look

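The 10 kb tile from 7 to 17 kb from the start of LIF differed between the knockdowns by a direct test of CDK19KD against CDK8KD, with a difference of −36.01 percentage points of cover (limma adjusted p = 0.0457, or 0.0443 with the replicate number as a block). Cover was lower in 3 of 3 CDK19KD libraries than in all 3 CDK8KD libraries, where the tile was full. A count of 1 called tile in 68 near the genes is near the 1.01% called among all tiles. With the 20000 strongest peaks of each list the difference was −41.05 points (adjusted p = 0.00249), and with a −log10 q of at least 5 it was −59.04 points (adjusted p = 0.531). Over the alternatives that keep this tile the adjusted p ranged from 0.00249 to 0.531. All CDK8KD libraries are at the ceiling of 100%, so leaving out Control or CDK8KD libraries could not move the difference, and its sign under those settings says nothing about stability.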

How the results depend on the processing

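Over 12 counts, 153 of 183 alternative values stayed within 1.5 times the reported count. With the replicate number as a block, 1 gene (LIF) was called in the 100 kb windows for CDK19KD against CDK8KD; the block changed no other call. For CDK8KD against Control, 1 tile near the genes was called with the 20000 strongest peaks, and 0 to 1 when single libraries were left out (1 without Control replicate 3). For CDK19KD against CDK8KD the tile count was 2 with the 20000 strongest peaks and 0 with a −log10 q of at least 5, with scaling by covered length, with no minimum, with the grid shifted by 5 kb and with tiles of 5 kb. It was 0 to 2 when single libraries were left out (2 without Control replicate 3, 0 without Control replicate 1 or any CDK19KD or CDK8KD replicate). Group-exclusive regions for CDK19KD against Control numbered 0 with a −log10 q of at least 5 and with the 20000 strongest peaks, 2 when 50% of a region had to be covered, 3 when a group needed only 2 more libraries than the other (the looser rule), and 1 to 3 when single libraries were left out (3 without CDK19KD replicate 1). For CDK8KD against Control they numbered 2 with the looser rule and 0 to 2 without single libraries (2 without CDK8KD replicate 1). For CDK19KD against CDK8KD they numbered 1 with the 20000 strongest peaks, 3 with 50% covered, 3 with the looser rule and 0 to 1 without single libraries (1 without CDK19KD replicate 1 or 3, or CDK8KD replicate 3). Among 804 alternative values of single genes and of the LIF tile, 734 were counted as alike, 58 as moved, 11 as weaker and 1 as stronger. Changes of sign were counted separately and can overlap these classes: 69 values changed sign, none of them called. The stricter lists and the left-out libraries test fewer peaks or samples; otherwise the cause was not tested. Read depth is unknown and limits what an absent peak can say.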
